A study of Mus musculus with 8 samples.

Results

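Mature miRNAs of the miR-99, miR-100 and miR-125 family were measured in mouse sperm. They are the 6 rows of 387 in the count table whose names carry miR-99a, miR-99b, miR-100, miR-125a or miR-125b: miR-99a-5p, miR-99b-5p, miR-100-5p, miR-125a-5p, miR-125b-5p and miR-125b-2-3p. Together they held 0.519% of all counted reads. The study compared small RNA from sperm of C57BL/6 mice, labelled as adults of 2 months, in 2 groups named Exposed (n = 4) and Trained (n = 4). Both groups had had a treatment related to smell that the labels do not describe further, both are marked F0, and no untreated group was analysed here. The labels do not say whether each library came from 1 animal, so the p-values measure the spread between these libraries, which may be partly technical.

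A mature miRNA guides the silencing complex to messenger RNAs through its seed, bases 2 to 8 from its 5′ end. The miR-125 genes are the vertebrate relatives of lin-4, the worm miRNA that, with let-7, times larval development. In mammals the miR-99 or miR-100, let-7 and miR-125 hairpins lie together in conserved clusters. miR-99 and miR-100 are known to target Mtor, the growth-control kinase, and miR-125 and let-7 are both known to target Lin28, whose protein blocks let-7 maturation. These are background facts and not results of these data.

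The mature sequences, from RefSeq (build GRCm38.p6), are shown because they decide which members share targets and which could share reads; capitals mark the seed. The first 3 lines share the miR-99 and miR-100 seed, the next 2 the miR-125 seed, and the sixth is the passenger arm of the second miR-125b hairpin.
miR-99a-5p: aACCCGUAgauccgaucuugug
miR-100-5p: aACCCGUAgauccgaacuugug
miR-99b-5p: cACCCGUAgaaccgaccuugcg
miR-125b-5p: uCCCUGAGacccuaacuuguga
miR-125a-5p: uCCCUGAGacccuuuaaccuguga
miR-125b-2-3p: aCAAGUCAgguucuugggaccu

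miR-99a-5p and miR-100-5p differ at 1 base of 22, U16A counted from the 5′ end. miR-99b-5p differs from miR-99a-5p at 4 bases, 3 of them A1C, U11A and U16C. miR-125a-5p, at 24 bases, is 3 edits from miR-125b-5p. Reads that cover the differing base can be told apart, but how the authors assigned reads that match more than 1 name is not given in the sources used here, so the split between miR-99a-5p and miR-100-5p carries that uncertainty. miR-351-5p has the miR-125 seed without the family name; it held 9 reads over all 8 libraries and was left out by the naming rule.

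The let-7 guide strands encoded in the same clusters are shown for comparison, again with the seed in capitals.
let-7c-5p: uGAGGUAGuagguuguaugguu
let-7e-5p: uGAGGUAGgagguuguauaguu
let-7a-5p: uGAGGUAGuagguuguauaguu

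These differ from let-7a-5p at 1 base each, A19G for let-7c-5p and U9G for let-7e-5p. The 6 hairpin genes of the family lie in 3 clusters on GRCm38, each on the plus strand and each with 1 let-7 hairpin. On chromosome 16, Mir99a (77598936 to 77599000) and Mirlet7c-1 (77599657 to 77599750) are separated by 656 bases and Mir125b-2 (77646273 to 77646343) follows. Together they span 47.4 kb, each in intronic sequence of the non-coding gene Mir99ahg. Mir125b-2 also overlaps an annotated exon of C130023A14Rik on the same strand. On chromosome 17, Mir99b (17830188 to 17830257), Mirlet7e (17830352 to 17830444) and Mir125a (17830812 to 17830879) span 692 bases of the protein-coding gene Spaca6; the first 2 are intronic and Mir125a overlaps an annotated exon. On chromosome 9, Mir100 (41531425 to 41531504), Mirlet7a-2 (41536716 to 41536811) and Mir125b-1 (41581926 to 41582002) span 50.6 kb, each in intronic sequence of the non-coding gene 3110039I08Rik. Mir125b-1 also overlaps an annotated exon of Gm28119 on the same strand. miR-125b-5p is made from both Mir125b-1 and Mir125b-2, and let-7a-5p and let-7c-5p also have hairpins outside these clusters, so their reads cannot be assigned to 1 locus.

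**Figure D1:**
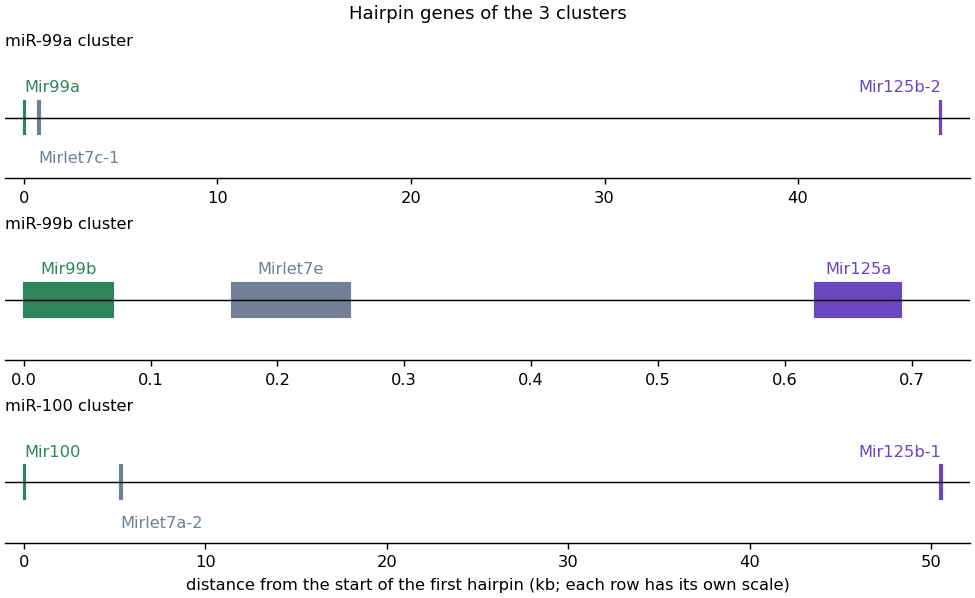
Position of the hairpins in the 3 clusters, as distance in kb from the first hairpin of each, with a scale of its own per row. The chromosome 17 cluster spans 0.692 kb, while the others span 47.4 and 50.6 kb.

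The libraries held between 193013 and 261903 counted miRNA reads. The labels report far more sequenced reads per sample than this. All 14 listed male germ cell miRNAs were present, with summed levels of 328064 to 397795 CPM, the read count scaled by the library's total of counted miRNA reads. One library of each group stood apart. In Exposed 2 the miRNAs listed for smooth muscle and stroma summed to 15653 CPM, the highest of all libraries, against 8108 to 10410 CPM in the other Exposed libraries and 7400 to 8656 CPM in the Trained libraries, with 6 of its 7 rows highest there. Its sums for the striated muscle list (3078 CPM), the epithelium list (3509 CPM) and the endothelium list (445 CPM) were also the highest of all 8 libraries, with 3 of 4, 3 of 5 and 2 of 2 rows highest there. The rows did not all move one way: miR-499-5p, the second largest striated muscle row, was lowest of all 8 libraries in Exposed 2, at 512 CPM. Exposed 2 also had the lowest red blood cell sum (229.8 CPM) and leukocyte sum (2197 CPM) of all 8 libraries. Trained 2 was close to it in the red blood cell sum, at 241.7 CPM, and was the lowest library for miR-486-5p and miR-144-5p. Of the leukocyte rows, miR-142-3p was at 201 CPM in Exposed 2, the highest of the Exposed libraries. miR-142-3p, miR-150-5p and miR-223-3p were lowest in Trained 2. The germ cell sum of Exposed 2, at 391666 CPM, was the highest of the Exposed libraries. Trained 3 had the highest red blood cell sum (4 rows, 11600 CPM against 229.8 to 4134 CPM in the other libraries), the highest leukocyte sum (5 rows, 9274 CPM) and the lowest germ cell sum. The germ cell rows did not all move one way: miR-34b-5p was highest of all 8 libraries in Trained 3, at 15655 CPM. Trained 3 also had the lowest smooth muscle and stroma (7400 CPM), striated muscle (1298 CPM), epithelium (1844 CPM) and endothelium (210 CPM) sums. Among the stroma rows, miR-199a-3p was highest in Trained 3, at 126 CPM. No marker row was at 0 in any library except miR-223-3p, a leukocyte miRNA. The part of these cell types in the family's values was not tested, and in bulk RNA fewer cells of a type and less RNA per cell cannot be told apart.

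miR-99a-5p was the most abundant member, at rank 51 of the 387 miRNAs, and made up 67.1% of the family's reads. Its levels in Exposed 1 to 4 were 3266, 4993, 3711 and 3357 CPM. In Trained 1 to 4 they were 2955, 2371, 4089 and 3371 CPM. Exposed 2 was highest and Trained 2 lowest, and Trained 3 lay above 3 of the 4 Exposed libraries, so the groups overlapped.

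miR-100-5p, which has the same seed, was at rank 91 and held 14.0% of the family's reads. The Exposed libraries had 669.7, 1182, 721.7 and 730.5 CPM. The Trained libraries had 682.7, 694.3, 511.6 and 701.0 CPM. Of the 8 libraries, 6 lay between 669.7 and 730.5 CPM, with Exposed 2 above and Trained 3 below them. Reads of miR-99a-5p outnumbered those of miR-100-5p 3.41 to 5.14 times in 7 libraries and 7.99 times in Trained 3.

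miR-99b-5p completes this seed group. It had 248, 560, 271 and 316 CPM in Exposed 1 to 4. It had 268, 238, 241 and 284 CPM in Trained 1 to 4. Exposed 2 was 1.77 times the next highest library, the widest such gap among the members, and the other 7 libraries lay between 238 and 316 CPM.

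miR-125b-5p, at rank 110, was the more abundant of the pair with the miR-125 seed. It had 364, 723, 345 and 456 CPM in the Exposed libraries. It had 487, 330, 313 and 413 CPM in the Trained libraries. Exposed 2 was again highest and Trained 3 lowest.

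miR-125a-5p, at rank 133, had 277, 369, 220 and 259 CPM in Exposed 1 to 4. It had 212, 199, 244 and 196 CPM in Trained 1 to 4. Of the 4 Trained libraries, 3 lay below every Exposed library, and Trained 3 lay above Exposed 3. With 47 to 77 reads per library, its variance within the groups was 1.88 times that of counting alone, against 39.0 times for miR-99a-5p. That measure rises with read number, and miR-99a-5p had a mean of 833 reads. Relative to the mean, their spreads were alike: the SD over the 8 libraries was 23.0% for miR-125a-5p and 22.3% for miR-99a-5p. Unlike the variance within the groups, this SD includes the difference between the groups.

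The passenger arm miR-125b-2-3p was at rank 268 with 4 to 6 reads in every library, 15.97 to 28.7 CPM. That is close to the limit of 3 reads, so no difference between libraries was detectable at this depth. All 6 members were highest in Exposed 2, and of the 226 miRNAs tested 26.1% were. Of the 6, 2 were lowest in Trained 3, miR-100-5p and miR-125b-5p, as were 19.5% of the tested miRNAs. The summed family level was 5783 ± 1394 CPM (SD) over the 4 Exposed libraries. Over the 4 Trained libraries it was 4719 ± 665 CPM (SD). The Exposed mean without Exposed 2 was 5092 ± 226 CPM (SD), and the difference of the group means, Trained relative to Exposed, went from -18.4% to -7.34%.

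**Figure D2:**
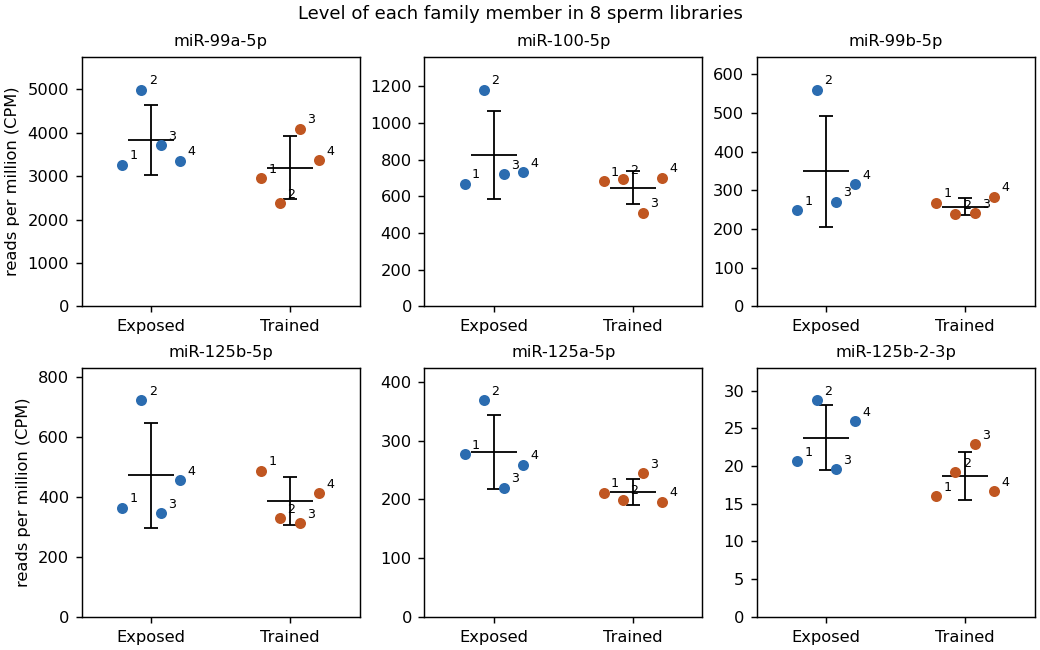
Level of each of the 6 members in each library, in CPM on linear axes from 0. Points are libraries with their replicate number, and black bars give the mean ± SD (n = 4). Exposed 2 is the highest point for every member, and the Exposed and Trained points overlap for every member.

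Of the 11 mature arms that RefSeq gives for the 6 hairpin genes, 6 had rows and the others were not analysed here, so arm use could be compared for miR-125b alone. The 5p arm took 95.01% ± 0.78 (SD, n = 4) of miR-125b reads in Exposed and 95.2% ± 1.64 (SD, n = 4) in Trained. The difference of 0.14 percentage points was smaller than either spread (exact two-sided permutation test over 70 assignments, p = 0.914). Pooled over libraries, 804 of 844 reads were 5p, 95.3% with a 95% Wilson interval of 93.6 to 96.5% that covers counting error only. The 5p reads come from both hairpins and the 3p reads from Mir125b-2, so this share is not that of a single hairpin.

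The main comparison asked whether sperm of Trained mice held other amounts of these miRNAs than sperm of Exposed mice. No member passed a false discovery rate (FDR) of 0.05 with edgeR's quasi-likelihood test, and none of the 226 tested miRNAs did (0.00%); the smallest FDR was 0.998, and 10 miRNAs had an unadjusted p under 0.05. DESeq2 and limma-voom also called none, with 12 and 9 at that unadjusted level. All 5 tested members had fitted values below 0, as did 48.2% of all tested miRNAs, with a median log2 fold change of -0.38 for the members and 0.00 for all. Fold changes are Trained over Exposed, on libraries scaled by trimmed means (TMM).

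Among the members the lowest p was that of miR-125a-5p, with a log2 fold change of -0.43 (SE 0.18, 95% interval -0.83 to -0.03, edgeR unadjusted p = 0.0378, FDR 0.998). Of all tested miRNAs 3.98% were lower at that unadjusted level. miR-99b-5p had -0.47 (SE 0.25) and miR-100-5p -0.38 (SE 0.20). miR-99a-5p had -0.29 (SE 0.19) and miR-125b-5p -0.32 (SE 0.25). The 95% intervals of these 4 included 0, the widest that of miR-99b-5p at -1.04 to 0.10.

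These values rested in part on Exposed 2. Without it the log2 fold changes were -0.14 for miR-99b-5p, -0.16 for miR-100-5p, -0.14 for miR-99a-5p, -0.04 for miR-125b-5p and -0.27 for miR-125a-5p. With both Exposed 2 and Trained 3 left out, the median over the 5 members was -0.06 and miR-125b-5p was at 0.10. For all 6 members the lowest Exposed library was not above the highest Trained one; 1.33% of the tested miRNAs had such a separation. In the authors' deposited table the members' log2 fold changes ran from -0.46 for miR-99b-5p to -0.30 for miR-99a-5p, each with an FDR of 1.

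**Figure D3:**
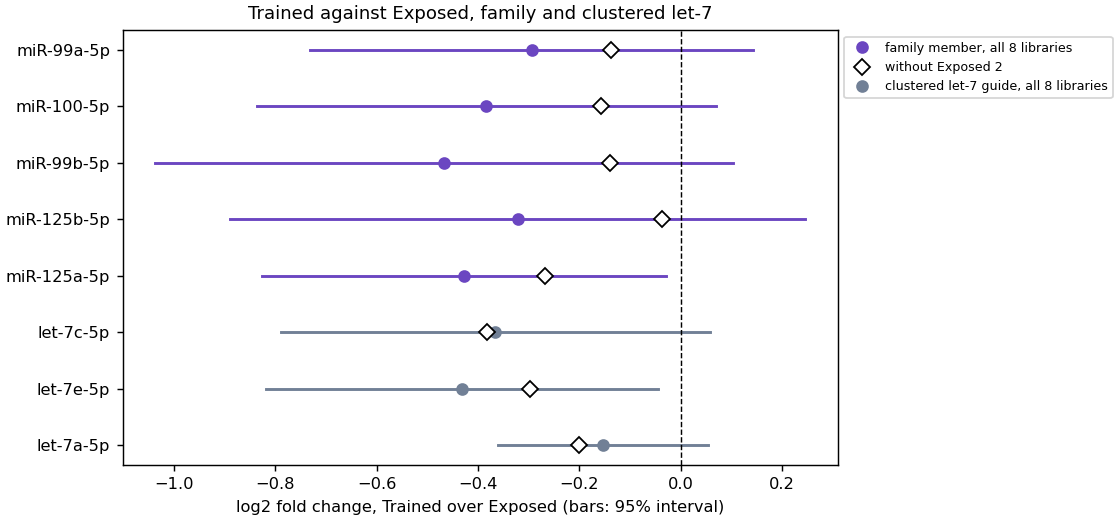
Log2 fold change of the 5 tested members and the 3 clustered let-7 guides, with 95% intervals as bars, and the value without Exposed 2 as diamonds. The 5 member values lie below 0 and move toward it without Exposed 2, miR-125b-5p to -0.04.

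Across the 8 libraries all 10 pairs of tested members had positive correlations of log2 CPM. In the family of 55 pairs that also held each member with 9 let-7 and miR-98 guides, none passed an adjusted p of 0.05 and 10 had an unadjusted p under 0.05, namely 4 member pairs, 3 positive pairs with let-7 and 3 negative ones. The highest r was that of miR-99b-5p with miR-100-5p (Pearson r = 0.92, exact permutation p = 0.0035, adjusted p = 0.0991; Spearman rho = 0.83, exact permutation p = 0.0154, adjusted p = 0.423). miR-99b-5p with miR-125b-5p followed (r = 0.91, exact permutation p = 0.0044, adjusted p = 0.0991; rho = 0.79, exact permutation p = 0.0279, adjusted p = 0.512). Neither pair lies in 1 cluster. The next highest member pair, miR-100-5p with miR-125b-5p, does share a cluster (r = 0.86, exact permutation p = 0.0092, adjusted p = 0.127). Its rho was 0.60 (exact permutation p = 0.132, adjusted p = 0.627). Its r was 0.52 without Exposed 2 and 0.08 without Exposed 2 and Trained 3.

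Of the 45 pairs with let-7 and miR-98 guides, 25 had a negative r. The lowest was miR-125b-5p with let-7g-5p, a let-7 guide from outside the 3 clusters (r = -0.87, exact permutation p = 0.0054, adjusted p = 0.0991; rho = -0.93, exact permutation p = 0.0022, adjusted p = 0.123). It was -0.82 without Exposed 2 and -0.76 without the libraries farthest from the median of miR-125b-5p, Exposed 2 and Trained 1. miR-100-5p had r = -0.87 with let-7g-5p and -0.80 with let-7i-5p (adjusted exact permutation p = 0.215 and 0.255). Without Exposed 2 and Trained 3 these were 0.04 and 0.80, so both rested on those libraries.

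The positive member pairs moved with Exposed 2. Leaving it out took miR-99b-5p with miR-100-5p to r = 0.57 and miR-99b-5p with miR-125b-5p to 0.73; without Exposed 2 and Exposed 4, the libraries farthest from the median of miR-99b-5p, these were 0.54 and 0.66. miR-99b-5p with its own cluster partner miR-125a-5p went from 0.78 to 0.08. The chromosome 16 cluster partners miR-99a-5p and miR-125b-5p went from 0.50 to -0.16. That pair was at -0.86 without Exposed 2 and Trained 2, the libraries farthest from the median of miR-99a-5p, and at 0.20 without Exposed 2 and Trained 3. The near-identical miR-99a-5p and miR-100-5p went from 0.43 to -0.48, and from there to 0.40 when Trained 3 was left out as well. Their relation therefore rested on those libraries.

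**Figure D4:**
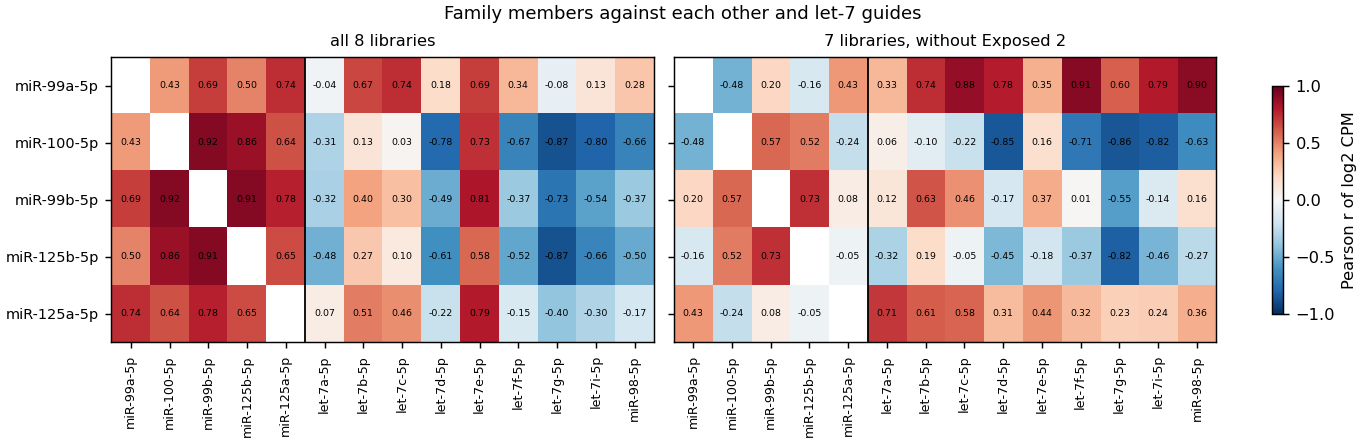
Pearson r of log2 CPM for each tested member (rows) with the other members and the let-7 guides (columns), over all 8 libraries and over 7 without Exposed 2. All 10 member pairs are positive in the left panel, and miR-99a-5p with miR-100-5p is -0.48 in the right one.

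The clusters gave the pairs in which a member and a let-7 share a locus. let-7c-5p, at rank 37, had 5536, 6319, 7033 and 7507 CPM in Exposed 1 to 4 and 4671, 3890, 7090 and 5299 CPM in Trained 1 to 4. miR-99a-5p had 0.447 to 0.790 reads per let-7c-5p read over the 8 libraries, and both were lowest in Trained 2 and high in Trained 3. Their r was 0.74 (exact permutation p = 0.0356, adjusted p = 0.245; rho = 0.64, exact permutation p = 0.0962, adjusted p = 0.627). It was 0.88 without Exposed 2 and 0.74 without the pair of libraries farthest from the median, Exposed 2 and Trained 2. Guides from outside the clusters had higher values in 1 or both of these subsets: let-7f-5p had r = 0.91 and 0.95 with miR-99a-5p, miR-98-5p 0.90 and 0.90, and let-7i-5p 0.79 and 0.91, although over all 8 libraries these were 0.34, 0.28 and 0.13. The other pair of the cluster, miR-125b-5p with let-7c-5p, had r = 0.10 (exact permutation p = 0.815, adjusted p = 0.879) and rho = -0.05 (exact permutation p = 0.935, adjusted p = 0.952).

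In the chromosome 17 cluster, let-7e-5p had 145, 235, 180 and 181 CPM in Exposed 1 to 4 and 132, 146, 153 and 129 CPM in Trained 1 to 4. let-7e-5p has a single hairpin, so this is the cluster in which all 3 guides are made from 1 locus. It had 31 to 49 reads per library and differs at 1 base from let-7a-5p, at a mean of 60374 CPM. How reads were assigned is not given, so the let-7e-5p count carries that uncertainty. In this cluster the members were the more abundant: miR-99b-5p had 1.5 to 2.39 reads per let-7e-5p read, and miR-125a-5p 1.22 to 1.91. The r with let-7e-5p was 0.81 for miR-99b-5p and 0.79 for miR-125a-5p, with adjusted exact permutation p of 0.215 and 0.211. The rho was 0.43 and 0.69, with adjusted exact permutation p of 0.715 and 0.627. Without Exposed 2 the r values were 0.37 and 0.44. Without the libraries farthest from the member's median, miR-99b-5p with let-7e-5p changed sign to -0.18 (Exposed 2 and Exposed 4 left out), so that relation rested on them, and miR-125a-5p with let-7e-5p was 0.70 (Exposed 1 and Exposed 2 left out).

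In the miR-100 cluster the order was the opposite. let-7a-5p, at rank 4, had 54647 to 65865 CPM in all 8 libraries, 47.4 to 120 reads for each miR-100-5p read. Its r with miR-100-5p was -0.31 and with miR-125b-5p -0.48 (adjusted exact permutation p = 0.647 and 0.398). Without the libraries farthest from the member's median these were 0.42 (Exposed 2 and Trained 3 left out) and 0.00 (Exposed 2 and Trained 1 left out). With all 8 libraries centred on their group means, r was -0.89 for miR-100-5p and -0.89 for miR-125b-5p. The relation thus varied strongly with the setting. Exposed 2, the highest library for both members, was the third lowest for let-7a-5p at 56046 CPM.

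The log2 ratio of a member to its clustered let-7 was compared between the groups for 6 pairs, and none passed (exact two-sided permutation tests over 70 assignments, adjusted p of 1 for each, smallest p the design allows 0.0286). The differences, Trained minus Exposed, ran from -0.20 for miR-100-5p to let-7a-5p to 0.11 for miR-125b-5p to let-7c-5p. miR-99a-5p to let-7c-5p was -0.80 ± 0.35 (SD, n = 4) in Exposed and -0.71 ± 0.07 (SD, n = 4) in Trained. In the fit, the let-7 guides had log2 fold changes of -0.43 for let-7e-5p (edgeR unadjusted p = 0.0323), -0.37 for let-7c-5p and -0.15 for let-7a-5p, all with an FDR of 0.998.

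**Figure D5:**
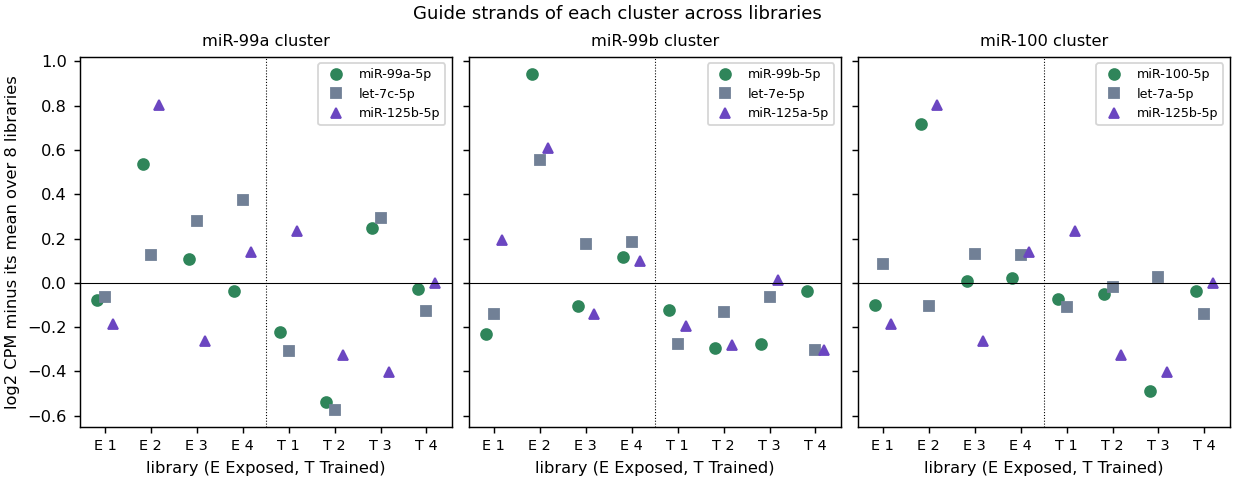
log2 CPM of each guide minus its mean over the 8 libraries, by cluster and library, with points for libraries. miR-99a-5p and let-7c-5p are both lowest in Trained 2, while miR-100-5p and miR-125b-5p are high in Exposed 2, where let-7a-5p is below its mean.

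The miRNAs most like the leading member of each seed group were sought among 221 other tested miRNAs, by Pearson r over the 8 libraries. For miR-99a-5p they were miR-378a-3p (0.78), miR-139-5p (0.77), miR-203-3p (0.75), miR-200a-3p (0.74) and let-7c-5p (0.74), each with an adjusted exact permutation p of 0.766. Without Exposed 2 and Trained 2 these were, in the same order, 0.62, 0.93, 0.28, 0.22 and 0.74. For miR-125b-5p they were miR-200c-3p (0.94), miR-465c-3p, miR-465b-3p and miR-465a-3p (0.89 each) and miR-743a-3p (0.88), each with an adjusted exact permutation p of 0.0543. Without Exposed 2 and Trained 1 these were, in the same order, 0.73, 0.90, 0.90, 0.89 and 0.81. The miR-465 rows are near-identical copies and count as 1 observation rather than 3. miR-200c-3p is on the epithelium list and was the largest row of it, while miR-743a-3p is on the male germ cell list. The germ cell list also holds the 5p arms of miR-465a, miR-465b and miR-465c, but not these 3p rows. The part of either cell type in these correlations was not tested.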

How the data were processed

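Small RNA of 8 mouse sperm samples was sequenced as 50 nt single-end reads, per the labels' protocols. The authors deposited 1 table with whole-number counts per mature miRNA, group means of those counts (a score here, with no error), log2 fold changes, mean log2 CPM, p-values and FDR. The submitters' processing notes list edgeR. Nothing used here names the aligner, the miRNA reference, the build, how reads were assigned or whether rows were filtered. The smallest row total was 7 reads, and no other per-sample columns (0) were left unused.

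Levels are counts divided by the library total. Groups were compared in R 4.3.3 using edgeR 4.0.16, with TMM factors, filterByExpr, robust quasi-likelihood fits and Benjamini-Hochberg adjustment over 226 miRNAs; miR-125b-2-3p was below the filter. On simulated counts it called 75.7% of 2-fold, 95.3% of 4-fold and 0.69% of unchanged miRNAs in the Trained against Exposed design (387 miRNAs). Each of the 10 simulated runs changed 40 of the tested miRNAs. The adjustment is easier to pass with that many changes, so these rates do not give the power for a single member here. Ratios and log2 CPM used a pseudocount of 0.5, and arm shares a minimum of 20 reads per library. Permutation tests (scipy 1.17.1) were exact, over 70 assignments or 40320 pairings. Coordinates are from the GENCODE annotation of GRCm38, 1-based; 310 rows matched RefSeq names, among them all 6 members.

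Groups and replicate numbers came from the sample titles. The text names all members, the let-7 guides, and the 5 miRNAs most like the leading member of each seed group. The members, marker lists and tests were chosen with earlier results of these data known. Alternatives were RLE, upper-quartile and library-total scaling, other filters, no robust estimation, DESeq2 1.42.0, limma-voom 3.58.1, a replicate block, a pseudocount of 2 and each library left out. Leaving out Exposed 2 and Trained 3 together was added after seeing the data.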

Additional observations from a re-analysis of the deposited data

Results flagged for a closer look

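In 34 groups of 4 libraries checked, 5 values stood apart from the rest of their group by Dixon's criterion. Chance sets about 1 in 20 independent groups apart. These groups share libraries and reads, as the sum and ratios reuse the members, so that rate is no fair yardstick here. miR-100-5p was at 1182 CPM in Exposed 2, against 669.7 to 730.5 CPM in the other Exposed libraries. The same miRNA was at 511.6 CPM in Trained 3, against 682.7 to 701.0 CPM in the other Trained libraries. The summed level of the family was 7855 CPM in Exposed 2, against 4845 to 5287 CPM. The log2 ratio of miR-100-5p to let-7a-5p was -5.56 in Exposed 2, against -6.57 to -6.49. The share of 5p reads of miR-125b was 96.2% in Exposed 2 and 94.6% in each of the other 3, which had the same 88 and 5 reads, so this gap is a matter of few reads.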

How the results depend on the processing

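No miRNA was called under any of the 18 other settings, and all 5 tested members stayed below 0 in each except 1. With Exposed 2 and Trained 3 both left out, miR-125b-5p was at 0.10, the log2 ratios were -0.00038 for miR-125a-5p to let-7e-5p, 0.17 for miR-100-5p to let-7a-5p and 0.27 for miR-125b-5p to let-7a-5p, and the correlations were -0.058 for miR-100-5p with miR-125a-5p and 0.42 for miR-100-5p with let-7a-5p. Centred on group means, miR-125b-5p with let-7c-5p was -0.13. The cause was not tested. The replicate block gave 14 miRNAs at an unadjusted edgeR p under 0.05 against 10 and no call. Same-numbered libraries had correlations of -0.41, 0.66, 0.69 and 0.49. Differently numbered ones ran from -0.78 (Exposed 2 with Trained 3) to 0.59 (Exposed 4 with Trained 3). These values do not settle whether the numbers are pairs, and the main fit did not treat them as pairs.

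Leaving out 1 library at a time, the 5p share difference ran from -0.41 to 0.80 points. The log2 ratio differences ran from -0.031 to 0.24 (miR-99a-5p to let-7c-5p), -0.052 to 0.36 (miR-125b-5p to let-7c-5p), -0.067 to 0.16 (miR-99b-5p to let-7e-5p), -0.10 to 0.12 (miR-125a-5p to let-7e-5p), -0.30 to 0.036 (miR-100-5p to let-7a-5p) and -0.28 to 0.15 (miR-125b-5p to let-7a-5p). Correlations ran from -0.48 to 0.80 (miR-99a-5p with miR-100-5p), -0.16 to 0.73 (miR-99a-5p with miR-125b-5p), -0.24 to 0.81 (miR-100-5p with miR-125a-5p), -0.048 to 0.76 (miR-125a-5p with miR-125b-5p), -0.39 to 0.060 (miR-100-5p with let-7a-5p), -0.20 to 0.29 (miR-125b-5p with let-7c-5p) and 0.57 to 0.97 (miR-99b-5p with miR-100-5p). The count of pairs at an adjusted p under 0.05 ran from 0 to 1; the 1 came without Trained 2 (miR-99b-5p with miR-100-5p, r = 0.94, exact permutation adjusted p = 0.0327). The summed level ran from -22.6% to -7.34%. Depth limits miR-125b-2-3p most, at 4 to 6 reads a library.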

Other observations

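miR-7a-5p, a miRNA known from neurons and endocrine cells, varied opposite to miR-125b-5p over the 8 libraries (Pearson r = -0.93, exact permutation p = 2.48e-05, the smallest that the pairings can give, adjusted p = 0.00548 over 221 miRNAs; Spearman rho = -1, exact permutation p = 4.96e-05). Without Exposed 2 and Trained 1, the libraries farthest from the median, r was -0.96. The relation was not particular to miR-7a-5p. With miR-125b-5p, miR-499-5p had r = -0.932 and miR-34b-5p -0.905, against -0.925 for miR-7a-5p. Their adjusted exact permutation p was 0.0543 each. The same search was also run for miR-99a-5p, which the adjustment does not cover. miR-7a-5p ranged from 8009 CPM in Exposed 2 to 11325 CPM in Trained 3. It was chosen after its values were seen.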
